A study of Mus musculus with 12 samples.

Results

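Fibroblast and connective tissue genes were followed through 3 preparations of mouse dorsal root ganglia (DRG), the clusters of sensory neuron cell bodies beside the spinal cord. The 8 genes are Dcn, Lum, Ogn, Fmod, Fn1, Mgp, Apod and Pdgfra, chosen by symbol, with earlier results of these data known, from the 24490 genes of the expression table, in which each of them has 1 row. RNA was sequenced in 4 samples of each preparation, all from adult male C57Bl/6 mice. Intact samples were whole ganglia from all spinal levels of 1 mouse. Unsorted samples, labelled Dissociated, were cells of 2 mice freed with dispase, collagenase and DNAse and passed through a cell strainer. MACS-sorted samples were such cells of 8 mice from which non-neuronal cells had been held back on a magnetic column by a cocktail of biotinylated antibodies, whose targets the methods do not name. Samples of the last 2 groups were therefore pools of mice. The values are FPKM, fragments scaled to the length of the transcript and to the number of fragments mapped in the sample, so that levels of different genes can be set side by side per length.

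Fibroblasts build the connective tissue of a ganglion. They lie in its outer capsule, which is continuous with the meninges, in the sheaths of the nerve roots and between the nerve fibres, and secrete collagens, proteoglycans and adhesive glycoproteins into the matrix. Dcn (decorin), Lum (lumican), Ogn (osteoglycin) and Fmod (fibromodulin) encode small leucine-rich proteoglycans, secreted proteins with a curved repeat domain that bind collagen fibrils and set their diameter and spacing. Fn1 encodes fibronectin, an adhesive glycoprotein to which cells attach through integrins. Mgp encodes matrix Gla protein, a vitamin K-dependent inhibitor of calcification, and Apod encodes apolipoprotein D, a lipid-carrying lipocalin made by fibroblasts of peripheral nerve. Pdgfra encodes the receptor for platelet-derived growth factors that serves as a general marker of fibroblasts.

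The estimated depth was 13600000 to 19500000 mapped fragments per sample, inferred from the spacing of low FPKM values, and no interval was drawn from it. Pan-neuronal markers summed to 3500 to 3740 FPKM in the intact group, to 4190 to 4520 FPKM after dissociation and to 3770 to 4820 FPKM after sorting. Some libraries stood apart and are named beside the results they touch. Intact replicate 1 held 2410 FPKM of 6 skeletal muscle markers against 13.3 to 53.7 in the other intact samples. Unsorted replicates 3 and 4 held 8.2 and 10.4 FPKM of 8 meningeal fibroblast markers against 126 and 128 in replicates 1 and 2. MACS-sorted replicate 4 held 1210 FPKM of 6 Schwann cell markers against 546 to 613 in the other sorted samples, and red blood cell markers reached 12500 and 15400 FPKM in MACS-sorted replicates 3 and 4 against 1680 and 2530 in replicates 1 and 2. Over genes with 2000 to 4000 estimated fragments, the squared difference between unsorted replicates 1 and 2 averaged 1.9 times that expected from sampling noise. For the remaining 17 pairs within a group it averaged 6 to 154 times that expectation. Unsorted replicates 1 and 2 were kept as 2 samples. The labels do not say whether these 2 came from separate RNA, and with their average as 1 sample the unsorted group would have n = 3, and the smallest p that the exact tests below allow would be larger.

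The genes lie on 6 chromosomes of mm10. Dcn (chr10:97479500-97518162, plus strand) and Lum (chr10:97565501-97572703, plus strand) are neighbours 47338 bases apart, followed by 2 further small leucine-rich proteoglycan genes, Kera and Epyc. Ogn (chr13:49608071-49624500, plus strand) ends a row of 4 such genes, Ecm2, Aspn, Omd and Ogn, that spans 119691 bases. Fmod (chr1:134037515-134048277, plus strand) shares a span of 151084 bases with Optc and Prelp, and Fn1 (chr1:71585473-71653234, minus strand) lies elsewhere on that chromosome. Mgp is at chr6:136872435-136875805 on the minus strand, Apod at chr16:31296192-31314596 on the minus strand and Pdgfra at chr5:75152291-75198204 on the plus strand.

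The promoters of 3 genes are shown because these genes mark the extremes of what follows: Apod was the most and Ogn the least reduced by dissociation, and Pdgfra the least reduced by sorting. The sequences are those of RefSeq on GRCm38.p6, the assembly of mm10, from 250 bases before to 50 bases after the start site in RefSeq, written 5′ to 3′ on the strand of the gene. Of the 8 genes, 4 had an entry, Fmod being the other one, and Dcn, Lum, Fn1 and Mgp had none. Apod (chr16:31314759-31315058, minus strand), Ogn (chr13:49607765-49608064, plus strand) and Pdgfra (chr5:75152001-75152300, plus strand) start in RefSeq 212, 56 and 40 bases from the start in the expression table. Capitals mark matches, on both strands, to 4 motifs. The motif TATAAA stands for the core promoter element of that name, CCAAT for the box bound by nuclear factor Y, TGANTCA for sites of the AP-1 factors, and GGAATG for sites of the TEAD factors.
Apod: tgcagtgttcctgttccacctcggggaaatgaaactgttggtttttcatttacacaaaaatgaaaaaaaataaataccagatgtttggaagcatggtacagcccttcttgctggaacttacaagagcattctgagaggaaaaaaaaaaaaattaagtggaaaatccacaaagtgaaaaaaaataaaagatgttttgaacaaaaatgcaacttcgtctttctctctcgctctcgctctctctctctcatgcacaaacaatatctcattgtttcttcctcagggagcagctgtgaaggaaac
Ogn: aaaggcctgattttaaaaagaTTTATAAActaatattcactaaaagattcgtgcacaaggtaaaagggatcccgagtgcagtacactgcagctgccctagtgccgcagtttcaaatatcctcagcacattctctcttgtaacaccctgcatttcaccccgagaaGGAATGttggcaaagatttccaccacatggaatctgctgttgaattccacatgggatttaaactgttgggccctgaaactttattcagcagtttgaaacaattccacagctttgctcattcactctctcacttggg
Pdgfra: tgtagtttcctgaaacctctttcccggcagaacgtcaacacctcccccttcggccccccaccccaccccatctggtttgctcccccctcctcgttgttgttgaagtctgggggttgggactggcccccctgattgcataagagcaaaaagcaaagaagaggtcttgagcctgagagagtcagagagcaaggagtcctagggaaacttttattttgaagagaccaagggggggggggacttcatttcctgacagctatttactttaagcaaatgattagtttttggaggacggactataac
The Ogn promoter held TATAAA on both strands, beginning at the overlapping positions −229 and −227 from the start site, and GGAATG at −86. The window of Fmod (chr1:134037004-134037303, plus strand) held CCAAT 35 bases after the RefSeq start site, and those of Apod and Pdgfra held none of these letters. Among the windows of all 32851 promoters in that table, 13.6% held TATAAA, 37.4% CCAAT, 7.8% TGANTCA and 14.7% GGAATG. Motif matches are a description of the letters, and no test of the groups used them. The GC content was 37.3% for Apod, 42.3% for Ogn and 51.0% for Pdgfra and for Fmod, against a median of 52.7% over all promoters.

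In intact ganglia, Apod and Dcn were by far the most abundant of the 8 messages, and Fmod and Pdgfra the least. Apod measured 396 ± 170 FPKM and Dcn 304 ± 143 FPKM (SD, n = 4), and their ranges over samples overlapped. Mgp followed at 120 ± 50.9, Ogn at 59 ± 6.38 and Lum at 46 ± 26.2 FPKM (SD, n = 4). Ogn and Lum overlapped in range, whereas Dcn and Mgp, Mgp and Ogn, and Lum and Fn1 did not. Fn1 stood at 18.9 ± 2.68 FPKM, and Fmod and Pdgfra at 6.06 ± 1.88 and 4.19 ± 0.566 FPKM (SD, n = 4), again with overlapping ranges. Together the 8 genes made up 0.259% to 0.444% of all FPKM in intact samples, 0.0536% to 0.126% after dissociation and 0.00619% to 0.0214% after sorting, and the 3 ranges did not overlap.

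**Figure D1:**
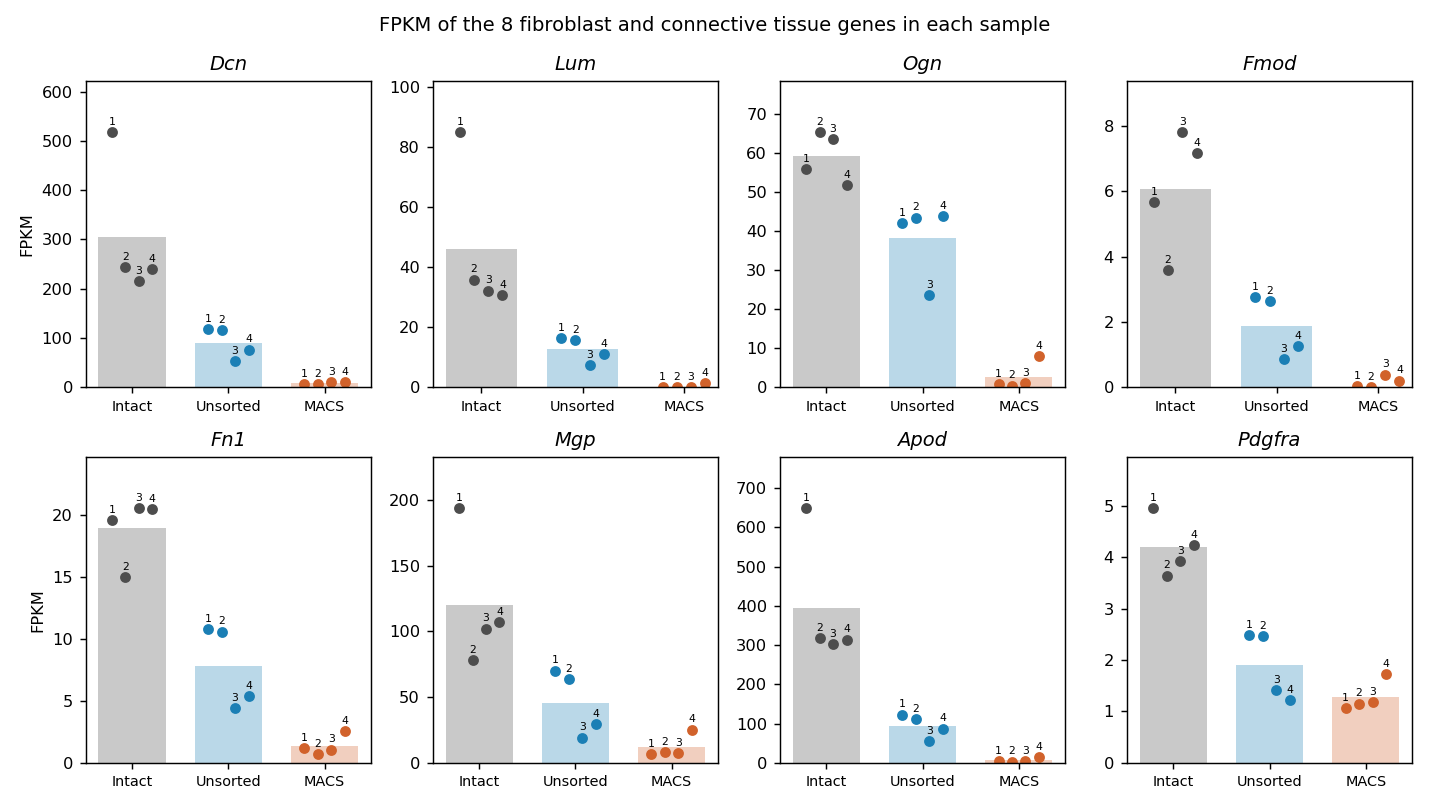
FPKM (vertical axes, each from 0) of the 8 genes in intact, unsorted and MACS-sorted DRG; points are samples, numbered by replicate, and bars are means of 4 samples, left out where a sample is listed at 0. Every gene was highest in intact samples, intact replicate 1 stood above the other intact samples in Dcn, Lum, Mgp and Apod, and MACS-sorted replicate 4 was the highest of the sorted samples for 7 of the 8 genes, all but Fmod.

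The first comparison set dissociated cells against intact ganglia, before any sorting. Enzyme treatment, straining and the number of mice per sample changed together and cannot be told apart, so dissociation stands here for that whole difference. All 8 genes were lower in every unsorted than in every intact sample, and 7 of them were called lower, against 2.76% of the 12392 genes tested. Groups that did not overlap in this direction were found for 12% of all genes tested. The 8 genes had log2-fold changes between −2.05 and −0.67 with a median of −1.61, against a median of 0.01 for all genes. The losses were unequal, from Apod, of which 23.9% of the intact mean was left, to Ogn, of which 64.6% was left. A call required an adjusted p-value under 0.05 from limma on log2(FPKM + 0.1), a log2 ratio of group means beyond 0.5 and more than 5 FPKM on average in whichever group was higher. All log2-fold changes given here are differences on the log2(FPKM + 0.1) scale, which understates the change of low genes, and all p-values are two-sided and Benjamini-Hochberg adjusted over all genes tested unless another test is named. In such bulk samples, fewer cells of a type and less RNA per cell cannot be told apart.

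Apod had 650, 317, 302 and 314 FPKM in intact replicates 1 to 4 and 123, 112, 55.7 and 87 FPKM in unsorted replicates 1 to 4. Intact replicate 1 stood far above the other 3, and the lowest intact value was well above the highest unsorted one. Its log2-fold change was −2.05 (standard error 0.31, limma adjusted p = 0.004), the 89th lowest of the 12392 genes tested. Dcn, the proteoglycan that binds collagen and TGF-beta, had 518, 244, 215 and 240 FPKM in intact and 118, 115, 52.5 and 76.1 FPKM in unsorted samples. Its values split within both groups in the same places, at intact replicate 1 and between the 2 pairs of unsorted samples, and its log2-fold change was −1.72 (standard error 0.33, limma adjusted p = 0.0093).

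Lum, the gene next to Dcn, had 85.1, 35.9, 32.2 and 30.8 FPKM in intact and 16.4, 15.6, 7.31 and 10.9 FPKM in unsorted samples. The lowest intact value lay above the highest unsorted one, with a log2-fold change of −1.80 (standard error 0.36, limma adjusted p = 0.011). Fmod, which also binds lysyl oxidase on collagen, was much scarcer, with 5.66, 3.59, 7.82 and 7.18 FPKM in intact and 2.77, 2.64, 0.867 and 1.26 FPKM in unsorted samples. Here intact replicate 1 was not the highest of its group, and the log2-fold change was −1.72 (standard error 0.38, limma adjusted p = 0.015). Fn1 had 19.6, 15, 20.6 and 20.5 FPKM in intact and 10.8, 10.6, 4.42 and 5.39 FPKM in unsorted samples, again with unsorted replicates 3 and 4 lowest and with a log2-fold change of −1.36 (standard error 0.29, limma adjusted p = 0.013).

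Ogn was the best preserved of the 8 genes. It had 55.8, 65.3, 63.4 and 51.7 FPKM in intact and 42, 43.4, 23.6 and 43.7 FPKM in unsorted samples, with unsorted replicate 3 well below the other 3. Its log2-fold change of −0.67 (standard error 0.20, limma adjusted p = 0.039) passed the criteria, but the call was lost without unsorted replicate 3, where the log2-fold change was −0.45, and the adjusted p rose above the threshold in 10 of 20 alternatives, to between 0.051 and 0.5. Mgp had 194, 78, 102 and 107 FPKM in intact and 70.1, 63.9, 19.2 and 29.6 FPKM in unsorted samples, so that the closest samples of the 2 groups differed little. Its log2-fold change was −1.50 (standard error 0.43, limma adjusted p = 0.037), and 5 of 20 alternatives took the adjusted p above the threshold, to between 0.058 and 0.099, among them those that left out intact replicate 3, intact replicate 4, unsorted replicate 3 or unsorted replicate 4.

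Pdgfra, the receptor, had 4.96, 3.64, 3.92 and 4.23 FPKM in intact and 2.48, 2.47, 1.41 and 1.22 FPKM in unsorted samples. The difference passed the test (log2-fold change −1.16, standard error 0.23, limma adjusted p = 0.011), and the gene was left uncalled because its intact mean stayed under 5 FPKM. All 8 genes passed the test as lower, which 7.79% of all genes did, and with that limit lowered to 1 FPKM all 8 were called. With unsorted replicates 1 and 2 averaged, 6 were called, without Ogn (limma adjusted p = 0.06). A fit on all 12 samples, in which the wider spread of the MACS-sorted group counts too, called 4 of the 8, namely Dcn, Fmod, Fn1 and Apod.

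The unsorted samples were not uniform for these genes. Unsorted replicates 3 and 4 had on average 0.364 times the Mgp level of replicates 1 and 2, 0.393 times the Fmod, 0.458 times the Fn1, 0.532 times the Pdgfra, 0.551 times the Dcn, 0.571 times the Lum, 0.606 times the Apod and 0.788 times the Ogn level. The same 2 samples were lower in meningeal fibroblast markers, in which Ptgds, the prostaglandin D synthase of the meninges and a lipocalin like Apod, had 113, 116, 4.51 and 6.33 FPKM in unsorted replicates 1 to 4. In intact samples Ptgds had 605, 368, 543 and 564 FPKM. The part of meningeal cells in the results for the 8 genes was not tested. Intact replicate 1 held 2.64 times the median of the other intact samples for Lum, 2.16 times for Dcn, 2.07 times for Apod and 1.9 times for Mgp, but 0.954 times for Fn1, 0.88 times for Ogn and 0.788 times for Fmod. Without that replicate, the unsorted mean was 38.9% of the intact mean for Dcn instead of 29.8%, 38.1% for Lum instead of 27.3%, 30.4% for Apod instead of 23.9% and 47.7% for Mgp instead of 38%. Without intact replicate 1 and unsorted replicate 3 together, 6 of the 8 genes were called lower.

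The second comparison set the cells that passed the magnetic column against the dissociated cells. All 8 genes had a lower mean in MACS-sorted than in unsorted samples, and 6 were called lower, against 12.5% of the 12038 genes tested. The exceptions were Fmod, which passed the test but not the FPKM limit, and Pdgfra, which did not pass the test. Lum and Fmod averaged under 1 FPKM in sorted samples and reached the mean of 1 FPKM that a test required through the unsorted group alone, so the counts are a description. In 6 of the 8 genes every sorted sample lay below every unsorted one, which held for 27.8% of all genes tested. The log2-fold changes ran from −5.97 for Lum to −0.49 for Pdgfra with a median of −3.26, against a median of −0.04 for all genes.

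Lum and Fmod came close to 0. Lum was listed at 0 in MACS-sorted replicates 1, 2 and 3 and at 1.25 FPKM in replicate 4, where 1 fragment of this gene would be worth about 0.03 FPKM. Its log2-fold change of −5.97 (standard error 0.79, limma adjusted p = 0.00021) was 25th from the bottom among all genes tested, and its size depends on the constant added, being −3.41 with 1 FPKM and −8.48 with 0.01 FPKM. Fmod had 0.0271, 0, 0.384 and 0.202 FPKM, a level of a few fragments at most in replicates 1 and 2. Its log2-fold change was −3.11 (standard error 0.60, limma adjusted p = 0.0021), and with a mean near 1 FPKM over the 8 samples it entered the test only through the unsorted group.

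Apod fell from the unsorted levels given above to 4.41, 2.84, 3.79 and 13.7 FPKM in MACS-sorted samples. With a log2-fold change of −4.13 (standard error 0.44, limma adjusted p = 5.7e-05), 6.55% of the unsorted mean remained, or 3.9% without MACS-sorted replicate 4. Dcn had 5.96, 6.46, 9.47 and 10.9 FPKM in sorted samples, the most even values of the 4 proteoglycans. Its log2-fold change of −3.42 (standard error 0.28, limma adjusted p = 1.2e-05) left 9.05% of the unsorted mean. Ogn, the gene best preserved by dissociation, had 0.799, 0.399, 1.09 and 7.88 FPKM in sorted samples, so that replicate 4 carried most of what remained. The log2-fold change was −4.69 (standard error 0.71, limma adjusted p = 5e-04), and 6.66% of the unsorted mean was left with replicate 4 and 2% without it.

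Fn1 and Mgp were reduced less. Fn1 had 1.16, 0.698, 1.06 and 2.59 FPKM in sorted samples, 17.6% of the unsorted mean, with a log2-fold change of −2.47 (standard error 0.40, limma adjusted p = 0.00079). Mgp had 6.47, 8.19, 7.09 and 25.3 FPKM in sorted samples, and replicate 4 lay above unsorted replicate 3 at 19.2 FPKM, so that the groups overlapped. Its log2-fold change was −2.0 (standard error 0.51, limma adjusted p = 0.0095), and 25.8% of the unsorted mean remained, or 15.9% without MACS-sorted replicate 4. Pdgfra had 1.06, 1.15, 1.18 and 1.72 FPKM in sorted samples, a mean of 1.28 ± 0.3 (SD, n = 4) against 1.9 ± 0.674 (SD, n = 4) without sorting. The difference, −0.49 on the log2 scale (standard error 0.27, limma adjusted p = 0.17), did not pass the test, and quantile normalization of the samples turned it to 0.0452. The missed threshold does not show that the receptor message was kept in full.

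**Figure D2:**
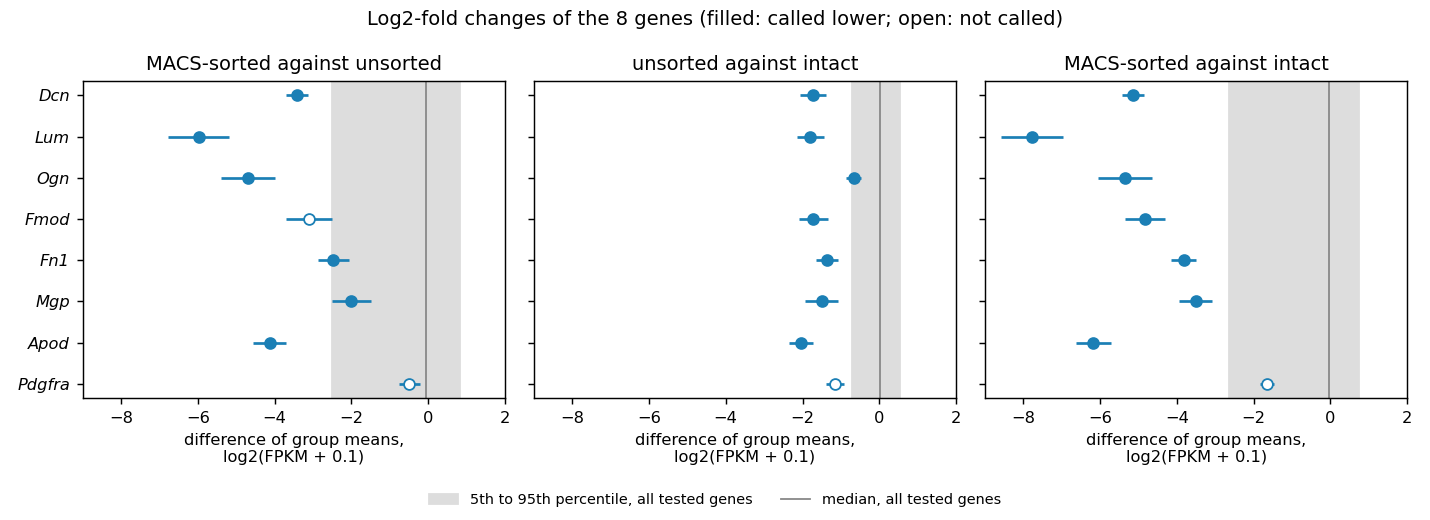
Log2-fold changes (horizontal axes, differences of group means of log2(FPKM + 0.1)) of the 8 genes in the 3 comparisons, with standard errors as bars; filled points were called lower, open points were not called, and grey shows all tested genes between the 5th and 95th percentile with their median as a line. Every point lies left of the median of all genes, and in MACS-sorted against unsorted samples the points spread from −5.97 for Lum to −0.49 for Pdgfra.

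MACS-sorted replicate 4 was above the median of the other sorted samples 9.86 times in Ogn, 3.61 times in Apod, 3.57 times in Mgp, 2.45 times in Fn1, 1.69 times in Dcn and 1.5 times in Pdgfra, whereas Fmod was highest in replicate 3, at an estimated 19.7 fragments. The same sample was high in the summed Schwann cell markers, as given above, and in the satellite glia marker Fabp7, with 1.79, 1.21, 2.35 and 10.8 FPKM in sorted replicates 1 to 4. None of the 5 satellite glia markers and 7 macrophage markers was listed at 0 in all sorted samples, and their sums ran from 83.8 to 123 FPKM and from 0.498 to 2.49 FPKM, each highest in replicate 4. The satellite glia sum was nearly all Glul, glutamine synthetase, at 104, 82.3, 105 and 111 FPKM, while Kcnj10, Slc1a3 and Ednrb averaged 0.119, 0.0364 and 0.338 FPKM in sorted samples. Their part in the results for the 8 genes was not tested. Without MACS-sorted replicate 4 and unsorted replicate 3 together, the same number of the 8 genes, 6, was called lower.

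Set directly against intact ganglia, MACS-sorted samples kept between 0.68% of the Lum mean, all of it from MACS-sorted replicate 4, and 30.5% of the Pdgfra mean, and 7 of the 8 genes were called lower, against 10.7% of the 12234 genes tested. The 3 comparisons share samples, so that their values are given side by side and are not independent of each other. Every sorted sample lay below every intact sample in all 8 genes, as it did for 21.9% of all genes tested. Lum and Fmod averaged under 1 FPKM in sorted samples and were tested here through the intact group alone, so these counts are a description. The log2-fold changes were −7.77 for Lum, −6.18 for Apod, −5.36 for Ogn, −5.14 for Dcn, −4.83 for Fmod, −3.83 for Fn1, −3.51 for Mgp and −1.65 for Pdgfra, with limma adjusted p-values between 5.7e-06 and 0.00031. The value of Lum was the 6th lowest among the genes tested. Pdgfra was again left uncalled by its level, at a limma adjusted p of 0.00015.

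The order of the messages changed with these unequal losses. In unsorted samples Apod (94.5 ± 30 FPKM) and Dcn (90.5 ± 31.8 FPKM; SD, n = 4 each) still led, followed by Mgp at 45.7 ± 25.1 and Ogn at 38.2 ± 9.76 FPKM (SD, n = 4), and neighbours down to Ogn overlapped. In sorted samples Mgp had the highest mean, 11.8 ± 9.06 FPKM, ahead of Dcn at 8.19 ± 2.37 and Apod at 6.19 ± 5.05 FPKM (SD, n = 4), but the ranges of all neighbours in that order overlapped. To compare the genes without any scaling between samples, each was set against Dcn in the same sample as a log2 ratio. For nearly every gene this ratio differs between groups that differ in Dcn, and the groups did not overlap for 94.1% of all genes tested in MACS-sorted against unsorted and 95.6% in unsorted against intact samples, so that the genes which stayed level with Dcn are the uncommon ones.

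Between unsorted and intact samples, 5 of the 7 ratios overlapped. Lum moved by −0.07 relative to Dcn and Fmod by 0.00, which are differences well inside the spread of the samples, and Fn1, Mgp and Pdgfra moved by 0.36, 0.22 and 0.56 (exact two-sided permutation p between 0.0857 and 1 for these 5). Ogn differed by 1.06 and Apod by −0.32 relative to Dcn, with no overlap between groups, both at p = 0.0286 by the exact permutation test, the smallest that 4 samples against 4 allow, which became 0.1 after adjustment over the 7 genes. Between MACS-sorted and unsorted samples, 4 of the 7 ratios did not overlap. Relative to Dcn, Pdgfra was 2.93 higher, Mgp 1.42 higher, and Fn1 0.96 higher, and Lum differed by −2.55, each at an exact permutation p of 0.0286, or 0.05 after adjustment over the 7 genes, which is not under that threshold. Ogn at −1.27 and Apod at −0.71 overlapped, each with an exact permutation p of 0.143, as did Fmod at 0.31 with p = 0.571. The value for Lum rests on the constant of 0.1 FPKM in the 3 samples listed at 0. Without MACS-sorted replicate 4, 6 of the 7 ratios did not overlap.

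**Figure D3:**
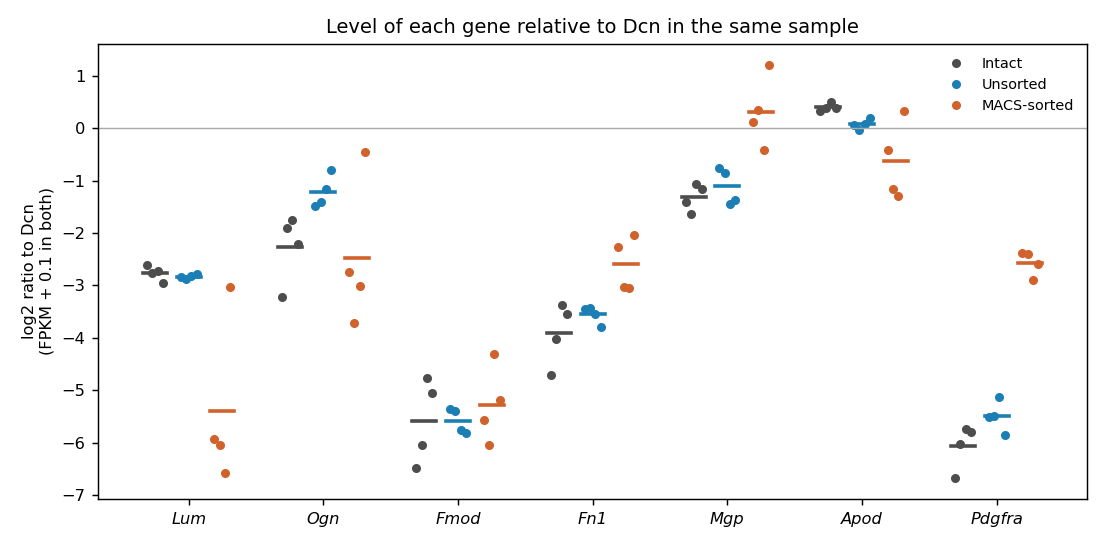
Log2 ratio of each gene to Dcn in the same sample (vertical axis, 0.1 FPKM added to both), for intact, unsorted and MACS-sorted samples; points are samples and short lines are group means. Lum lay between −2.96 and −2.6 in all intact and unsorted samples, and the mean of Pdgfra was −5.49 in unsorted and −2.57 in sorted samples.

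The 4 proteoglycans belong to a family of 18 genes in the table. In unsorted against intact samples, 12 of the family were tested, 6 were called lower and 1 higher, where 2.76% and 4.29% of all genes were. Beside Dcn, Lum, Ogn and Fmod, the genes called lower were Prelp (log2-fold change −1.17, limma adjusted p = 0.015) and Ecm2 (−0.80, limma adjusted p = 0.048), the latter not under median-ratio scaling or quantile normalization. Bgn, the close relative of Dcn, had a log2-fold change of −0.50 (limma adjusted p = 0.16), and Aspn, Chad and Omd had −0.30, −0.43 and −0.82 with adjusted p-values between 0.096 and 0.57. Podn passed the test at a lower level (−1.75, limma adjusted p = 0.012), but averaged under 1 FPKM in unsorted samples and was tested through the intact group alone. Chadl was the one called higher, with 5.09, 5.1, 5.05 and 5.17 FPKM in intact and 8.21, 7.37, 7.31 and 7.07 FPKM in unsorted samples. Without intact replicate 1 and unsorted replicate 3, the call of Ogn and that of Ecm2 were lost, and those of Dcn, Lum, Fmod and Prelp were not.

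In MACS-sorted against unsorted samples, all 10 family members tested passed the test as lower, which 27.7% of all genes did, with log2-fold changes from −5.97 to −2.68, and 5 were called, namely Dcn, Lum, Ogn, Bgn and Chadl. The remaining 8 averaged under 1 FPKM over both groups and were not tested, and a gene that reaches this limit through the unsorted group alone has to differ, so the count is a description. Chadl, which dissociation had left higher, was listed at 0 in MACS-sorted replicates 1, 2 and 3 and at 1.71 FPKM in replicate 4. Bgn had 2.23, 0.91, 2.1 and 4.44 FPKM in sorted samples. Kera and Epyc, which follow Lum on chromosome 10, stayed at or under 0.313 FPKM in every sample, as did Optc, Nyx and Podnl1, and Tsku did not exceed 1.35 FPKM. Kera and Optc were listed at 0 in all 4 sorted samples.

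**Figure D4:**
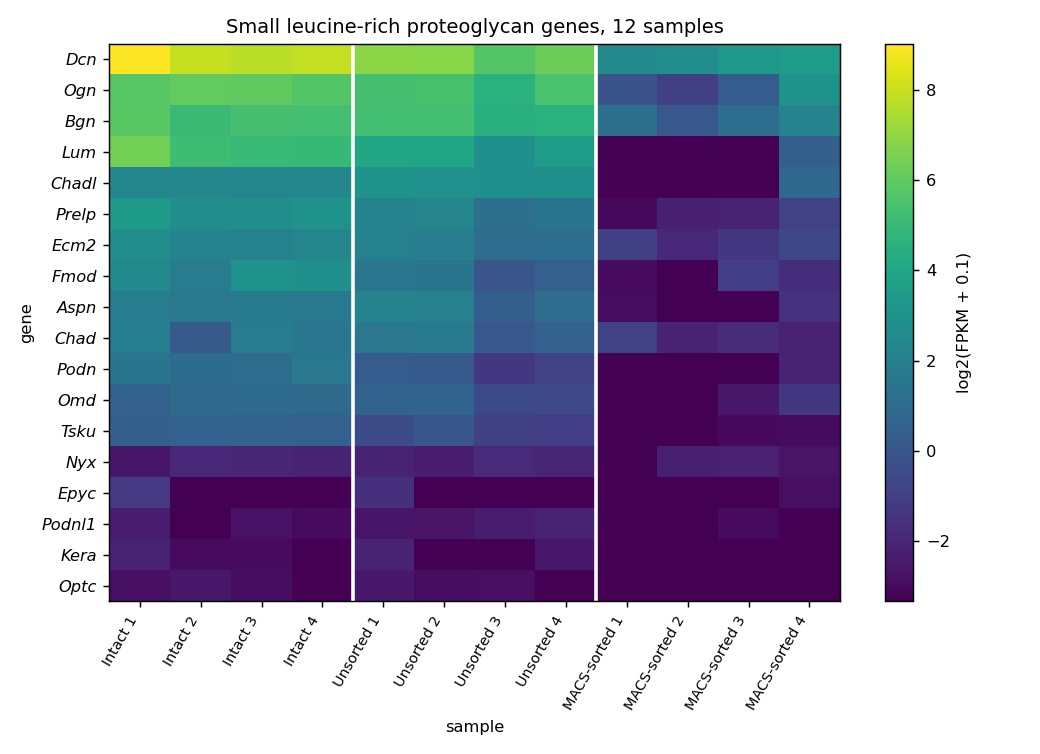
Level of the 18 small leucine-rich proteoglycan genes (rows, ordered by their mean) in each of the 12 samples (columns), coloured by log2(FPKM + 0.1), with the darkest colour at 0 FPKM. Dcn is the brightest row in every sample, Lum and Chadl are dark in the first 3 of the sorted samples, and the lowest 5 rows are dark throughout.

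Of a list of 19 other fibroblast genes, 11 were tested in MACS-sorted against unsorted samples, and 8 were called lower with none higher, where 12.5% of all genes were called lower. Islr, Fbln2, Mfap5, Pcolce, Clec3b and Mmp2 were among those that averaged under 1 FPKM in sorted samples and were tested through the unsorted group alone, so this count too is a description. Col1a2, Col3a1 and Col1a1, chains of the fibril-forming collagens, had log2-fold changes of −5.89, −5.96 and −5.99 (limma adjusted p between 0.0002 and 0.00099). Serpinf1, chosen here after its values were seen, stood out at the other end, with 26.5, 42.3, 30.1 and 23.3 FPKM in sorted samples and a log2-fold change of −0.57 (limma adjusted p = 0.018), a call lost with median-ratio scaling and without MACS-sorted replicate 4 and unsorted replicate 3. In unsorted against intact samples, 17 of the list were tested, 7 were called lower and 1 higher, or 5 and 1 without intact replicate 1 and unsorted replicate 3, which removed the calls of Col3a1 and Clec3b. The shares over all genes were 2.76% called lower and 4.29% called higher. The collagens had log2-fold changes of −0.71, −0.97 and −1.04 for Col1a2, Col3a1 and Col1a1 (limma adjusted p between 0.018 and 0.034), smaller than those of Dcn and Apod, a difference that was not tested. Fbln2, a matrix protein of basement membranes, was the one called higher, at 14.3, 20.6, 23.9 and 18.1 FPKM in intact and 40.9, 38.8, 42.3 and 37.3 FPKM in unsorted samples (log2-fold change 1.07, limma adjusted p = 0.0028).

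Markers that separate kinds of fibroblast and sheath cell moved unequally. In unsorted against intact samples, 2.76% of all genes were called lower and 4.29% higher. Of 8 meningeal markers, 7 were tested there and 3 were called lower, Ptgds (−4.35, limma adjusted p = 0.02), Crabp2 (−2.18, limma adjusted p = 0.013) and Slc47a1 (−2.13, limma adjusted p = 0.019). All 7 passed the test as lower, which 7.79% of all genes did. The uncalled ones, Aldh1a2, Slc6a13, Foxd1 and Foxc1, missed the FPKM limit. They averaged under 1 FPKM in unsorted samples and were tested through the intact group alone, so this count is a description. Of 7 epineurial markers, 5 were tested, 1 was called lower and 1 higher, namely Clec3b at −1.44 and Ly6c1 at 0.64 (limma adjusted p = 0.027 and 0.01), and Ly6c1 is also made by endothelial cells. The call of Clec3b was lost without intact replicate 1 and unsorted replicate 3. Pcolce2 measured 13.7 to 14.9 FPKM in the intact group, 14.4 to 17.8 FPKM after dissociation and 6.38 to 10 FPKM after sorting, and had a log2-fold change of 0.21 (limma adjusted p = 0.1) on dissociation and of −1.02 (limma adjusted p = 0.00023) on sorting. Of 6 perineurial markers, Cldn1 was called lower (−1.18, limma adjusted p = 0.011) and Slc2a1, a glucose transporter also found in capillaries, higher (0.57, limma adjusted p = 0.0026), while Perp had −0.61 (limma adjusted p = 0.15). Msln (−2.44, limma adjusted p = 0.021) and Gli1 (−1.71, limma adjusted p = 0.0012), both under the FPKM limit, passed the test as lower too, so that 3 of the 6 passed in that direction. Msln and Gli1 averaged under 1 FPKM in unsorted samples and were tested through the intact group alone, so this count too is a description. The 3 endoneurial markers summed to at most 2.77 FPKM in any sample and were not tested.

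Genes that act on or with the proteins of the 8 genes gave mixed results. Of 8 fibronectin receptor genes, 6 were tested in MACS-sorted against unsorted samples, where 12.5% of all genes were called lower. Itgav, Itgb3, Itgb5 and Sdc4 were called lower, with log2-fold changes from −4.81 to −3.41. The first 3 of these averaged under 1 FPKM in sorted samples and were tested through the unsorted group alone, so this count is a description. Itgb1, the integrin beta chain shared by many cell types, had 87.4, 92, 90.5 and 84.6 FPKM in sorted samples and a log2-fold change of −0.21 (limma adjusted p = 0.051). After dissociation 7 were tested and Itgb3 alone was called, as higher (0.57, limma adjusted p = 0.0064), where 4.29% of all genes were called higher. Among the partners of Pdgfra, the ligand Pdgfa had 20.9 to 26.9 FPKM in all 12 samples and log2-fold changes of 0.15 and −0.17 (limma adjusted p = 0.13 and 0.076) on dissociation and on sorting. The second receptor, Pdgfrb, a pericyte gene, was called lower on sorting (−0.56, limma adjusted p = 0.0045; 0.00 with adjusted p = 0.98 on dissociation), a call that quantile normalization removed, and Pdgfb had −0.85 (limma adjusted p = 0.07). The scarcer ligand Pdgfc passed the test in both comparisons under the FPKM limit, higher on dissociation (0.90, limma adjusted p = 0.015) and lower on sorting (−3.64, limma adjusted p = 4.7e-05), as did Pdgfb on dissociation (0.70, limma adjusted p = 0.0056). With a mean of 0.0786 FPKM in sorted samples, Pdgfc was tested on sorting through the unsorted group alone.

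Of the 6 ligand and receptor genes of TGF-beta, the growth factor that decorin binds, none was called after dissociation, where their log2-fold changes were between 0.02 and 0.63. Beside this and the following counts, 2.76% of all genes were called lower on dissociation and 12.5% on sorting. On sorting, the receptors Tgfbr3, Tgfbr2 and Tgfbr1 were called lower at −2.06, −1.77 and −1.53, the last not under median-ratio scaling or quantile normalization, and the most abundant ligand, Tgfb3, had −0.28 (limma adjusted p = 0.11). The ligands Tgfb1 and Tgfb2 passed the test as lower at −1.41 and −1.02 (limma adjusted p = 0.0039 and 0.0027), both under the FPKM limit. With a mean of 0.679 FPKM in sorted samples, Tgfb1 was tested through the unsorted group alone. Of 12 collagen processing and crosslinking enzymes, 3 were called lower on dissociation and 3 of the 8 tested on sorting, or 2 under median-ratio scaling or quantile normalization, which lost Lox, in both cases with Pcolce (−1.22 and −4.34, limma adjusted p = 0.013 and 0.00034), which is also on the fibroblast list. Lox and Pcolce averaged under 1 FPKM in sorted samples and were tested on sorting through the unsorted group alone, so that count is a description. Plod3 and P4ha1, hydroxylases of the endoplasmic reticulum, had 9.91 to 14.9 and 9.29 to 11.2 FPKM in sorted samples and log2-fold changes of −0.12 and −0.18 (limma adjusted p = 0.45 and 0.13). Of the enzymes and proteins of vitamin K-dependent carboxylation, the modification that Mgp carries, Gas6, Vkorc1 and Pros1 were called lower on sorting at −1.37, −0.72 and −1.35, Pros1 not under quantile normalization, and none was called on dissociation, and Vkorc1l1 had −0.37 (limma adjusted p = 0.0054). Of the 5 other lipocalins, Ptgds and the retinol carrier Rbp4 (−2.47, limma adjusted p = 0.028) were called lower on dissociation, Rbp4 not without intact replicate 1 and unsorted replicate 3. On sorting, Ptgds was called lower (−3.59, limma adjusted p = 0.04), with 1.66, 0.409, 1.71 and 11.5 FPKM in sorted samples. The groups overlapped, as unsorted replicates 3 and 4 had 4.51 and 6.33 FPKM against 113 and 116 in replicates 1 and 2. Lcn2 had 0.44, 3.13, 0.702 and 11.4 FPKM in sorted samples and −0.19 (limma adjusted p = 0.86).

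Markers of other cell types moved in both directions. On dissociation, none of 6 Schwann cell markers and none of 8 pan-neuronal markers was called (2 Schwann cell markers as lower under quantile normalization), 2 of 5 satellite glia markers and 5 of 7 endothelial markers were called higher, and 1 of 7 macrophage markers and 5 of 6 skeletal muscle markers were called lower, or 0 and 2 without intact replicate 1 and unsorted replicate 3. The shares over all genes were 4.29% called higher and 2.76% called lower. The skeletal muscle markers averaged under 1 FPKM in unsorted samples and were tested through the intact group alone. The macrophage call, Csf1r, was also lost under quantile normalization, but all 7 macrophage markers were lower in every unsorted than in every intact sample and 5 passed the test, with a median log2-fold change of −1.11. For all genes tested these shares were 12% and 7.79%. Aif1, Cd163, Cx3cr1 and Emr1 averaged under 1 FPKM in unsorted samples and were tested through the intact group alone. On sorting, 5 of 6 Schwann cell and 4 of 5 satellite glia markers were called lower, whereas none of 7 endothelial markers was called, with log2-fold changes from −0.70 to −0.05, and Rgs5, a pericyte gene, was called higher (0.87, limma adjusted p = 0.0093), as 8.15% of all genes were. Of the 8 pericyte and smooth muscle markers, 3 were called lower on sorting, among them Tagln, which was listed at 0 in all 4 sorted samples. Of 7 red blood cell markers, 6 were called higher on sorting, and of the pan-neuronal markers 1 higher and 1 lower. Adipocyte markers summed to at most 2.75 FPKM and those of cartilage, bone and tendon to at most 15.2 FPKM in any sample. For the genes called on any of these lists, no direction turned under median-ratio scaling or quantile normalization.

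**Figure D5:**
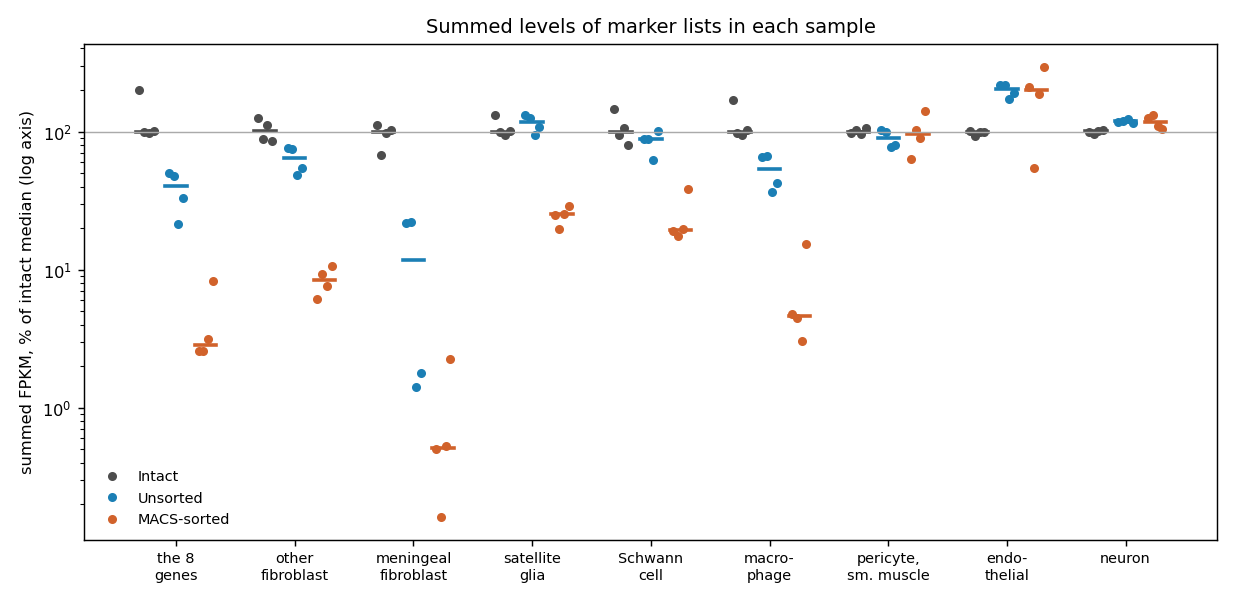
Summed FPKM of the 8 genes and of 8 lists of marker genes in each sample, as a percentage of the median of the intact samples (vertical axis, logarithmic); points are samples and short lines are medians. The 8 genes stood at a median of 40.4% in unsorted and 2.86% in sorted samples. Medians were 203% and 199% for endothelial markers, with MACS-sorted replicate 2 at 54.1%, and 118% and 117% for neuronal markers.

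The 8 genes varied together over the 12 samples, which is largely the difference between the 3 groups. The Pearson correlation of each with the mean of the other 7, on standardised log2(FPKM + 0.1), lay between 0.89 for Pdgfra and 0.99 for Fn1 and Apod. Among 8951 further genes that averaged 5 FPKM or more in at least 1 group, those most like the mean profile of the 8 were Cldn11 and Igf2 (both r = 0.997), 1500015O10Rik (0.994), Crispld2 (0.992), Mrc2 and Slc47a1 (both 0.991), Htra3 and Smoc2 (both 0.99), Vit (0.989) and Sfrp4 (0.988). These are descriptions over 12 samples that share 3 preparations. Igf2, insulin-like growth factor 2, had means of 42.1, 11.3 and 0.288 FPKM in intact, unsorted and sorted samples, and Cldn11, a tight junction protein, 16.9, 4.22 and 0.247 FPKM. Within groups, after the group means were removed, the correlations of these 10 genes were 0.857 to 0.98. They were picked over the same 12 samples, so high values within groups follow in part from the choice. Pairs of the 8 genes correlated within groups between 0.35 for Lum with Fmod and 0.95 for Lum with Apod.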

How the data were processed

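RNA from intact, unsorted and MACS-sorted DRG was sequenced as directional polyA libraries, and the authors mapped them on mm10 using TopHat2 with at most 2 alignments a read, merged lanes with SAMtools and estimated expression with Cufflinks 2.1.1. Each deposited value is the FPKM of 1 gene in 1 sample. Every sample was used, grouped by its label.

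For each comparison, limma 3.58.1 (R 4.3.3) was fitted to log2(FPKM + 0.1) of its 8 samples, two-sided and with the variance trend on intensity, over genes averaging 1 FPKM or more there, and all 8 members passed that filter in each comparison. The paper's CuffDiff needs aligned reads and was replaced, with its call criteria kept. Ratios to Dcn were compared with exact permutation tests. Depth was estimated with an assumed fragment length of 150 bases. On data simulated for MACS-sorted against unsorted samples, 100 of 100 genes changed by 1 on the log2 scale were called in the right direction. Of those changed by 2, 98 of 100 were. Recovery at the levels and the spread of the 8 genes in sorted samples was not tested.

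The members and gene lists were chosen with earlier results of these data known. Genes named are the members, the proteoglycan family, the 3 most abundant genes of each other list with those called against most of their list, and the 10 genes most like the members; others named within a called group were chosen after their values were seen. Replicates are separate samples by their labels. Alternatives are given in the closing section.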

Additional observations from a re-analysis of the deposited data

Results flagged for a closer look

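With 4 samples in each of 3 groups, the 8 genes gave 24 groups of values, and in 8 of them 1 sample lay far from the other 3 by Dixon's criterion, which chance meets in about 1 in 20 groups. In intact replicate 1, Dcn had 518 FPKM against 215 to 244, Lum 85.1 against 30.8 to 35.9 and Apod 650 against 302 to 317 FPKM in the other intact samples. In MACS-sorted replicate 4, Lum had 1.25 FPKM against 0 in the other sorted samples, Ogn 7.88 against 0.399 to 1.09, Mgp 25.3 against 6.47 to 8.19 and Apod 13.7 against 2.84 to 4.41 FPKM. In unsorted replicate 3, Ogn had 23.6 FPKM against 42 to 43.7 FPKM. The 8 values fall in 3 libraries, and a library counts once for several genes that vary together, so the flags are not independent of each other.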

How the results depend on the processing

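The log2-fold changes of the 8 genes were recomputed under 460 combinations of gene, comparison and setting, of which 443 kept both their direction and their side of the adjusted p threshold, 16 moved past the threshold and 1 reversed. The reversal was Pdgfra in MACS-sorted against unsorted samples under quantile normalization, at 0.0452 (limma adjusted p = 0.88), and the cause was not tested. All 16 losses were in unsorted against intact samples, 10 for Ogn, 5 for Mgp and 1 for Lum. Of the counts of genes called lower, that of unsorted against intact samples changed by over 1.5 times, to 4 in a fit on all 12 samples. Leaving out 1 sample at a time gave 5 to 7 genes in unsorted against intact, 6 in MACS-sorted against unsorted and 7 in MACS-sorted against intact samples, and 2 to 3 ratios to Dcn without overlap in unsorted against intact and 4 to 6 in MACS-sorted against unsorted samples. Leaving out the libraries that stood apart, 2 at a time, was chosen after seeing the data and gave 6, 6 and 7 genes. With 1 FPKM as pseudocount, Lum gave way to Fmod among the 4 ratios to Dcn without overlap on sorting. Fmod was not tested on sorting with median-ratio scaling, whose filter it missed. Quantile normalization shifted the median of all genes from −0.04 to 0.10 on sorting and from −0.04 to 0.13 in MACS-sorted against intact samples, and changed the split of all calls from 981 higher and 1505 lower to 1382 and 1285, from 922 and 1313 to 1248 and 1183, and from 531 and 342 to 421 and 408 in unsorted against intact samples.

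With the replicate block, 6 of the 8 genes were called in MACS-sorted against unsorted, 6 in unsorted against intact and 7 in MACS-sorted against intact samples. The replicate numbers did not pair the samples: deviations from the group means correlated between −0.14 and 0.07 for samples with the same number.

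Depth is known only as an estimate. Levels of at most about 1 fragment, as for Lum in sorted replicates 1 to 3 and Fmod in sorted replicates 1 and 2, cannot be ranked. The pooling of 1, 2 and 8 mice per sample moves with the groups, so its effect on the levels and the spread cannot be told apart from theirs.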
